A study of Mus musculus with 4 samples.

Results

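The Dlk1-Dio3 domain is an imprinted region of mouse chromosome 12, in which each gene is expressed mainly from the copy inherited from one parent. It was described here through 5 genes listed by name, Dlk1, Dio3, Meg3, Rian and Mirg, out of 20136 genes in the tables. All 5 were listed in all 4 tables. They were measured in single cells from the BNST, the bed nucleus of stria terminalis, which belongs to the extended amygdala. The study has a single group: untreated male wildtype C57BL/6J mice, with 4 Drop-seq libraries from pools of 6 mice each, 24 mice in all. No age is given, and no treatment, genotype or sex is compared. All comparisons below are therefore between cells of the same pools.

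In this domain the protein-coding genes Dlk1, Rtl1 and Dio3 are expressed from the paternal chromosome, and the long noncoding RNAs Meg3, Rian and Mirg from the maternal one. Dlk1 encodes a transmembrane protein related to the ligands of Notch receptors, and Dio3 encodes the type 3 deiodinase, which inactivates thyroid hormone. Meg3, Rian and Mirg carry no known protein, and their transcripts host microRNAs and, in Rian, small nucleolar RNAs. Rtl1 is a retrotransposon-derived gene in the middle of the domain and is described beside the 5 genes where it bears on them. Tables of gene counts do not separate the parental copies, so imprinting itself was not measured.

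On GRCm38, in the GENCODE vM21 annotation, Dlk1 lies on the plus strand at chr12:109452823-109463336, Meg3 on the plus strand at chr12:109541001-109571726, and Rtl1 on the minus strand at chr12:109589193-109600330. Rian follows on the plus strand at chr12:109603940-109661716, Mirg on the plus strand at chr12:109729764-109749460, and Dio3 on the plus strand at chr12:110279068-110281097. From the start of Dlk1 to the end of Dio3 the domain spans 828 kb. Meg3 overlaps the minus-strand gene Gm26906, Rian overlaps Gm26945 on its own strand, and Rtl1 lies opposite several microRNA genes. Whether counting used the strand is not given in the sources used here, so reads of such overlapping pairs cannot be told apart. Dio3os, the antisense neighbour of Dio3, had 1 UMI in all libraries.

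**Figure D1:**
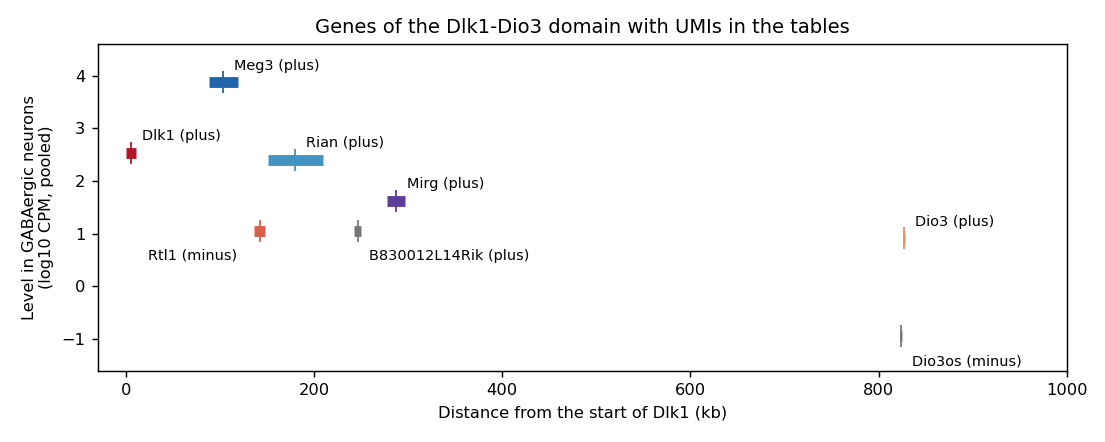
The plot places 8 genes of the domain by distance from the start of Dlk1 in kb (x axis; bar length is gene length) and by pooled level in GABAergic neurons on a log10 CPM axis; strands are given in brackets. The CPM values are not divided by gene length, and Dio3, with Dio3os beside it, stands apart from the other genes at the far end of the 828 kb.

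Sequences of 2 kinds show what the labels of the domain stand for. The first are mature microRNAs that the annotation places inside the noncoding genes, printed from RefSeq with the seed, bases 2 to 8, in capitals. Their hosts are what the tables count; the microRNAs themselves were not measured by this assay. RefSeq places 3 mature microRNAs inside Meg3, 6 inside Rian and 26 inside Mirg. Inside Mirg, miR-453 and miR-496a-5p have the same seed, and miR-127-3p lies opposite Rtl1.
mmu-miR-770-5p (Meg3, chr12:109563710-109563731): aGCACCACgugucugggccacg
mmu-miR-370-3p (Rian, chr12:109618305-109618326): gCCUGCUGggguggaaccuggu
mmu-miR-453 (Mirg, chr12:109735669-109735692): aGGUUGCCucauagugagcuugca
mmu-miR-496a-5p (Mirg, chr12:109739132-109739152): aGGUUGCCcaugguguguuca
mmu-miR-127-3p (opposite Rtl1, chr12:109592888-109592909): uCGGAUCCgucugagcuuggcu

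The second are the stretches before the start sites of Dlk1, Dio3 and Meg3, the genes whose cell patterns are compared below. Capitals mark the TATA element TATAAA, the CAAT box with its core CCAAT, and the GC box with its core GGGCGG, each searched on both strands. In Meg3 the 2 matches of TATAAA, which are on opposite strands and overlap, are printed as 1 run. All are on the plus strand of GRCm38, from RefSeq; the Dio3 stretch ends where its first GENCODE exon begins.
Dlk1 (chr12:109452573-109452822): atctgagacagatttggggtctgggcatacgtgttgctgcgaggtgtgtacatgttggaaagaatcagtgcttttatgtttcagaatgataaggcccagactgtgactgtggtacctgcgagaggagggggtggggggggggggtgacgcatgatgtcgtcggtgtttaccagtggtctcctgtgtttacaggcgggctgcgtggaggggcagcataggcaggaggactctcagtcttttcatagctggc
Dio3 (chr12:110278980-110279067): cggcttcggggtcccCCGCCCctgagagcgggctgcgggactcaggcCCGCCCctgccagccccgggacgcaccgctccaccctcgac
Meg3 (chr12:109540746-109540995): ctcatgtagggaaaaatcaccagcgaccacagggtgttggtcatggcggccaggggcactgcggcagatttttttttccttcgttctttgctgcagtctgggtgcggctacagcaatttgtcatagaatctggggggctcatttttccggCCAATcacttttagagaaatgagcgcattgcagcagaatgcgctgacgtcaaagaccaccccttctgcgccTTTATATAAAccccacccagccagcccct
Over the full 250 bases before the RefSeq start, Dio3 had 69.6% G and C and 21 CpG, against 54.8% and 8 for Dlk1. The medians over 32851 promoters of this length were 52.4% and 6. The Dlk1 stretch held none of the 3 motifs. The full 250 bases of Dio3 held TATAAA at 31 bases before the RefSeq start, 2 matches of CCAAT and 4 of GGGCGG. The printed part of Dio3 holds 2 of the GGGCGG matches and no TATAAA or CCAAT. The other matches lie after the start of its first GENCODE exon. The Meg3 stretch held TATAAA and CCAAT. Over all promoters, 12.4% held TATAAA, 33.8% CCAAT and 32.7% GGGCGG, so matches of the latter motifs are common.

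The tables held 10200 cell barcodes, of which 4181 (41.0%) had enough genes and few enough mitochondrial UMIs, and were not called doublets. Kept cells had a median of 1849 UMIs (unique molecular identifiers, each marking 1 captured molecule), and no barcode was shared between libraries. Neurons numbered 2478, of which 2149 were GABAergic and 84 glutamatergic by transmitter genes; the other large classes were 917 oligodendrocytes, 399 astrocytes and 160 oligodendrocyte precursors. Glia were shallower than neurons, with a median of 1386 UMIs in oligodendrocytes and 812 in astrocytes against 3526 in GABAergic neurons. Levels are given as CPM, the gene's UMIs scaled to 1e+06 UMIs of the class in a library, with mean ± SD over n = 4 libraries. Each library comes from its own mice.

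All 5 genes were neuronal genes in this tissue. Dlk1 had 3293 UMIs in kept cells, Dio3 76, Meg3 72877, Rian 2500 and Mirg 415. GABAergic neurons held 93.5% of the Dlk1 UMIs, 96.1% of Dio3, 90.6% of Meg3, 89.5% of Rian and 91.1% of Mirg. They held 73.7% of the UMIs of all genes.

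Dlk1 in neurons was 233, 370, 380 and 463 CPM in libraries 1 to 4, and in all non-neuronal cells 7.87, 10.6, 12.1 and 7.21 CPM. The ranges did not overlap. Meg3 in neurons was 4602, 5675, 12861 and 10473 CPM, against 184, 191, 298 and 543 CPM in non-neuronal cells, again with no overlap. Rian was 203, 238, 404 and 248 CPM against 7.87, 12.7, 15.6 and 24.0 CPM. Mirg was 38.9, 25.3, 70.5 and 44.6 CPM against 1.31, 0, 3.46 and 0 CPM. Each of the 4 genes was higher in neurons in 4 of 4 libraries.

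In the fit over all genes (edgeR's quasi-likelihood test with library as a block, Benjamini-Hochberg adjustment), 4 of the 5 genes were tested and all 4 rose in neurons. Dlk1 rose by 4.89 on the log2 scale (SE 0.19, adjusted p = 1.88e-29) and Meg3 by 4.51 (SE 0.12, adjusted p = 5.47e-36). Rian rose by 3.98 (SE 0.19, adjusted p = 8.39e-26) and Mirg by 4.72 (SE 0.46, adjusted p = 2.18e-13). Of 10238 genes tested, 71.4% passed in either direction and 36.9% were higher in neurons, so a call alone is common in this comparison. All 10 of 10 neuronal genes that had no part in defining neurons were also higher, with a median log2 fold change of 4.78 against 0.05 over all genes tested.

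Dio3 was not in that fit because its UMIs were too few for the low-count filter. It had 75 UMIs in neurons and 0 in 1571 non-neuronal cells. A count of 0 allows up to 1.35 CPM and a share of cells with a UMI of up to 0.191%, against 7.75 CPM in neurons pooled, which is at least 5.75-fold higher. Dio3 was also at 0 in 84 glutamatergic neurons, which allows up to 6.05 CPM, against 8.22 CPM pooled in GABAergic neurons (95% Poisson interval 6.45 to 10.3).

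The glial levels of the 4 genes were mostly within those of other neuronal genes in the same cells. Relative to its level in neurons, pooled over libraries, Meg3 was at 2.01% in oligodendrocytes, 5.30% in astrocytes and 15.5% in oligodendrocyte precursors. The 10 neuronal genes ranged from 1.05% to 3.96% in oligodendrocytes, 1.56% to 6.90% in astrocytes and 2.74% to 45.4% in precursors. Meg3, Dlk1, Rian and Mirg were inside these ranges in oligodendrocytes; in astrocytes Rian, at 7.58%, was above the range, on 7 UMIs. Dlk1 in precursors was 1.60% of its neuronal level, on 1 UMI, below the range. Meg3 in precursors was 1042, 1066, 1187 and 1289 CPM in libraries 1 to 4, above the 95.3, 81.6, 157 and 310 CPM in oligodendrocytes. The part of free RNA in the glial levels was not tested.

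**Figure D2:**
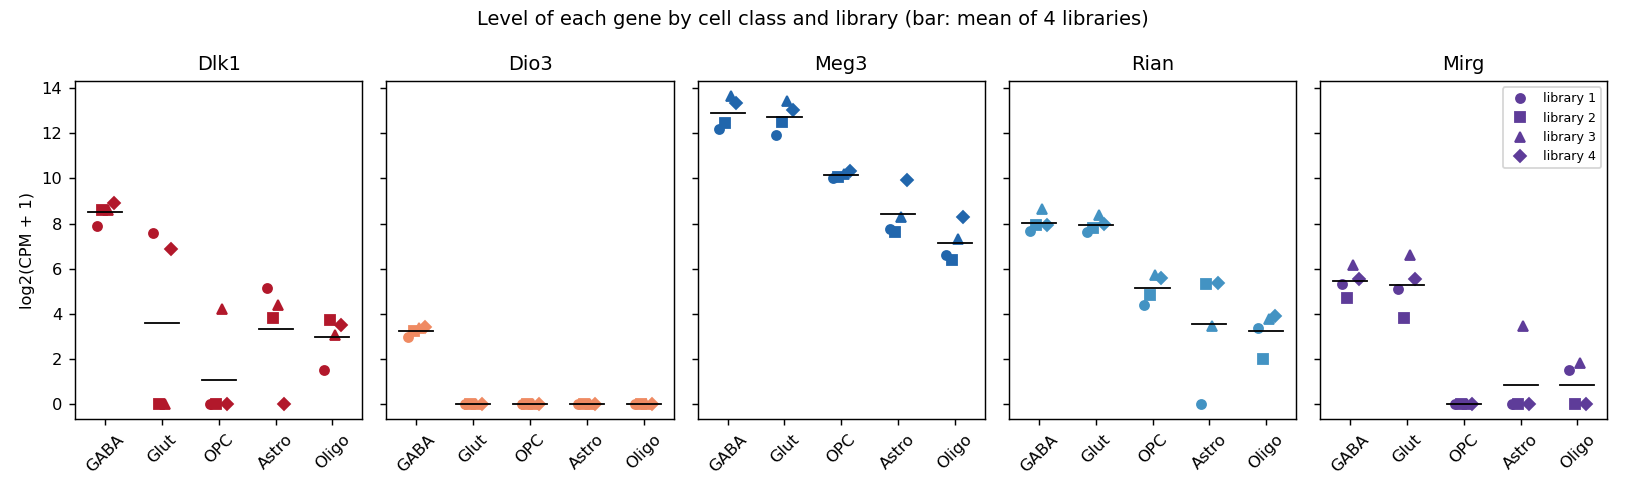
Each panel plots 1 gene as log2(CPM + 1) in GABAergic neurons (GABA), glutamatergic neurons (Glut), oligodendrocyte precursors (OPC), astrocytes (Astro) and oligodendrocytes (Oligo), with 1 point per library and a bar at the mean. Dio3 has no UMI outside GABAergic neurons among these classes, and Dlk1 is at 0 in the glutamatergic cells of libraries 2 and 3.

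Between transmitter classes, the measured difference was larger for Dlk1 than for the noncoding RNAs. Dlk1 was 237, 387, 390 and 478 CPM in GABAergic neurons of libraries 1 to 4 and 192, 0, 0 and 114 CPM in glutamatergic neurons, so it was higher in GABAergic neurons in 4 of 4 libraries. The difference was 1.47 on the log2 scale (SE 0.21). It was 3.83 without library 1, which held most glutamatergic cells. It was 0.30 (SE 0.11) for Meg3, 0.17 (SE 0.19) for Rian and 0.19 (SE 0.41) for Mirg, each higher in 3 of 4 libraries. No p is given, since library 3 held 7 glutamatergic cells and library 4 held 12.

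Among GABAergic neurons, Dlk1 was the most uneven of the genes with enough UMIs to compare. It had a UMI in 618 of 2149 cells (28.8%), with up to 42 UMIs in 1 cell. Meg3 had a UMI in 2121 cells (98.7%), Rian in 1139, Mirg in 312 and Dio3 in 61. GABAergic subtypes were taken as cells with UMIs of a marker gene, at least 2 for neuropeptide genes and at least 1 for others. Of 23 such gates, 22 had enough cells, and 1516 of the 2149 cells were in 2 or more of them, so gates are not separate populations. Over the 22 gates the mean level of Dlk1 ran from 11.8 CPM to 736 CPM, a 62.6-fold range. Meg3 ran from 6725 to 9933 CPM, a 1.48-fold range, and Rian from 229 to 344 CPM, a 1.50-fold range. The range for Mirg was 2.85-fold, from 22.2 to 63.3 CPM.

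Dlk1 passed the test in 12 of 22 gates, higher in 7 and lower in 5. In the same fits 0.321% to 19.5% of all genes tested passed. The highest level was in cells with a UMI of Lhx8, a LIM homeobox transcription factor of basal forebrain neurons. There Dlk1 was 641, 675, 741 and 889 CPM in libraries 1 to 4, against 195, 349, 365 and 445 CPM in the other GABAergic neurons. The ranges did not overlap, and Dlk1 rose by 1.20 on the log2 scale (SE 0.11, adjusted p = 1.17e-12 by edgeR). In this gate 11.7% of all genes tested passed.

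Cells with Six3, a homeobox transcription factor, and with Ppp1r1b, the gene of the dopamine-signalling protein DARPP-32, had the next largest log2 fold changes of Dlk1 among its rises. In the Six3 gate Dlk1 was 371, 705, 504 and 808 CPM inside and 197, 311, 361 and 383 CPM outside, higher inside in 4 of 4 libraries (log2 fold change 0.92, SE 0.07, adjusted p = 2.47e-32). In the Ppp1r1b gate it was 436, 657, 641 and 741 CPM inside and 208, 357, 348 and 436 CPM outside (log2 fold change 0.91, SE 0.08, adjusted p = 5.03e-11). Of all genes tested, 5.92% passed in the Six3 gate and 19.5% in the Ppp1r1b gate. Of the 281 cells of the Ppp1r1b gate, 128 (45.6%) were also in the Six3 gate, which is 28.3% of the latter. No cell was in both the Ppp1r1b and the Lhx8 gate.

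Smaller rises of Dlk1 were found with 4 other markers. With Crh, the gene of corticotropin-releasing hormone, the log2 fold change was 0.57 (adjusted p = 6.55e-06), higher in 4 of 4 libraries. With Pdyn, the prodynorphin gene, it was 0.82 (adjusted p = 1.41e-04), but Dlk1 was higher in 3 of 4 libraries and the call ended without library 1 (adjusted p = 0.103). With Zic1, a zinc-finger transcription factor, it was 0.37 (adjusted p = 0.0317) and with Penk, the proenkephalin gene, 0.25 (adjusted p = 0.0293). The Zic1 call ended without library 2 (0.531) or library 4 (0.285), and the Penk call without library 1 (0.228) or library 3 (0.243), all as adjusted p. Of all genes, 6.0% passed in the Crh gate, 3.17% with Pdyn, 4.72% with Zic1 and 6.12% with Penk. These gates share cells with those above: 46.8% of the Pdyn and 25.0% of the Penk cells were in the Ppp1r1b gate. Of the Crh cells, 18.9% were in the Lhx8 gate. After thinning to 1000 UMIs Dlk1 in the Crh gate was at 0.29 and did not pass.

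Dlk1 was nearly missing from cells with Slc17a8, the gene of vesicular glutamate transporter 3. In this gate Dlk1 had 3, 1, 0 and 2 UMIs in libraries 1 to 4, which is 24.5, 6.03, 0 and 16.5 CPM, against 245, 423, 417 and 509 CPM outside it. All 112 cells of the gate together held 6 Dlk1 UMIs, and Dlk1 fell by 5.05 on the log2 scale (SE 0.30, adjusted p = 8.05e-22). In cells with Tac2, the neurokinin B precursor gene, Dlk1 was 58.0, 104, 69.1 and 123 CPM against 266, 422, 411 and 514 CPM outside. The ranges did not overlap, and Dlk1 fell by 2.13 on the log2 scale (SE 0.14, adjusted p = 1.77e-13). Of all genes, 4.83% passed in the Slc17a8 gate and 2.33% in the Tac2 gate.

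Dlk1 was also lower in the gates of Cck (log2 fold change -0.66, adjusted p = 0.00193), Npy (-0.59, adjusted p = 0.0130) and Pnoc (-0.45, adjusted p = 0.0104), which are genes of the neuropeptides cholecystokinin, neuropeptide Y and nociceptin. The Cck call ended without library 1 (adjusted p = 0.217) or library 4 (0.0872). The Npy call ended without library 3 (0.414) or library 4 (0.511), and the Pnoc call without library 1 (0.372) or library 4 (0.184). Of all genes, 4.54%, 2.68% and 2.0% passed in these gates. Cells inside a gate were often deeper than those outside; the median was 4997 UMIs inside the Lhx8 gate and 3424 (3423.5) outside, and 3398 inside and 3540 outside the Ppp1r1b gate. After thinning all cells to 1000 UMIs Dlk1 passed in 5 gates.

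**Figure D3:**
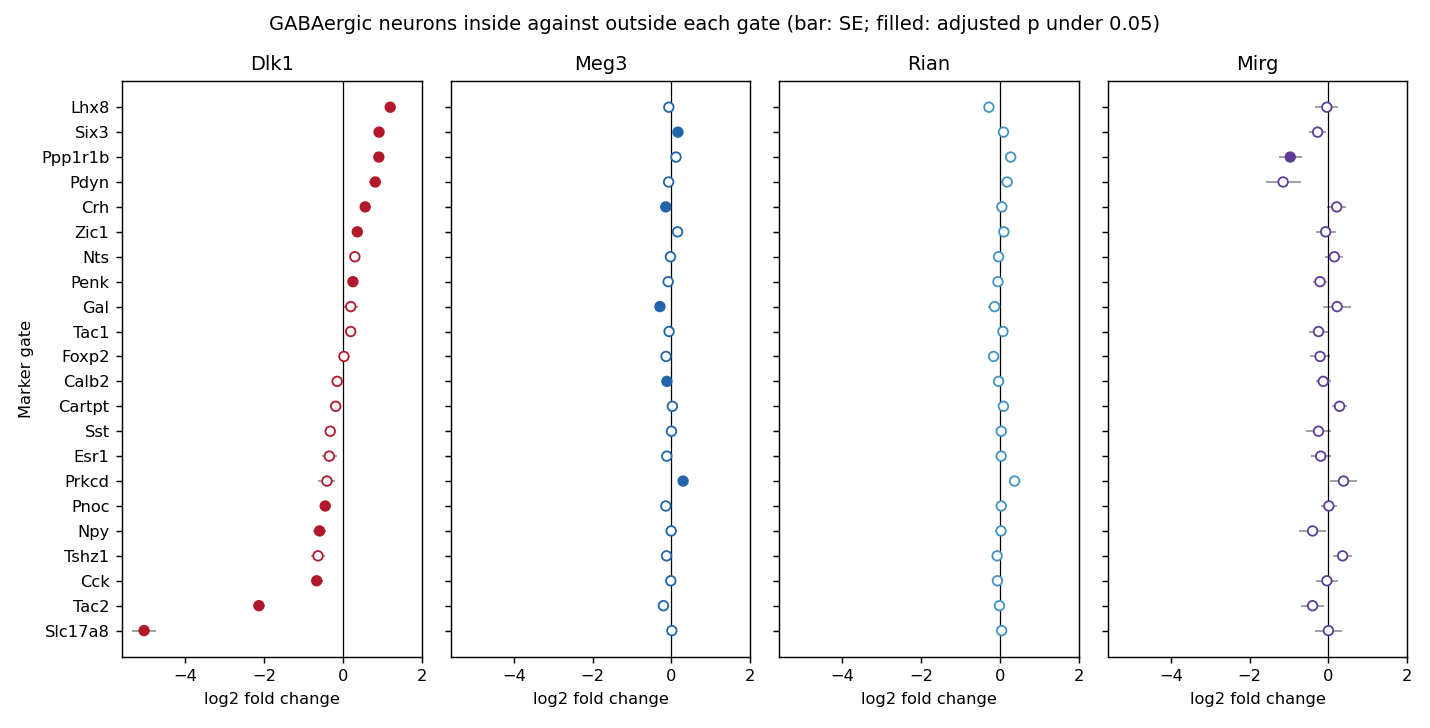
For 22 marker gates (y axis, ordered by Dlk1), the plot gives the log2 fold change inside against outside the gate in GABAergic neurons for Dlk1, Meg3, Rian and Mirg, with the SE as a bar and filled points for an adjusted p under 0.05 by edgeR. Dlk1 spreads from -5.05 to 1.20, while Meg3 stays between -0.29 and 0.30.

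Dio3 was sparse, with 73 UMIs in 61 GABAergic neurons, and 32 of those UMIs were in the 281 cells of the Ppp1r1b gate. That is 43.8% of its UMIs in cells that held 12.8% of all GABAergic UMIs. Dio3 was 25.5, 31.8, 30.1 and 29.2 CPM inside this gate and 4.15, 5.85, 5.77 and 6.53 CPM outside it, with no overlap. By edgeR without the low-count filter, Dio3 rose by 2.32 on the log2 scale (SE 0.41, adjusted p = 8.08e-07), where 10.6% of 18440 genes passed. With the filter the value was 2.40 (adjusted p = 1.05e-05, where 19.5% of genes passed), but Dio3 passed the filter in this gate alone, where it is high, so that test is not separate support.

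Without that filter, Dio3 passed in 5 further gates. It was higher with Six3 (log2 fold change 1.50, adjusted p = 0.00505) and Penk (1.28, adjusted p = 0.0173), in both in 3 of 4 libraries; in library 2 it was 8.20 CPM inside and 8.49 outside the Six3 gate, and 8.04 and 8.57 CPM for Penk. It was lower with Pnoc (-3.05, adjusted p = 0.00628), on 1, 0, 1 and 0 UMIs inside the gate in libraries 1 to 4. It was also lower with Calb2, the gene of the calcium-binding protein calretinin (-1.98, adjusted p = 0.00332), on 4, 2, 1 and 0 UMIs. In these fits 3.15%, 3.37%, 1.41% and 3.23% of 18440 genes passed. In the Crh gate, where Dlk1 was higher, Dio3 had 2 UMIs in 228 cells. It was at -2.53 there and did not pass (adjusted p = 0.0508 by edgeR without the filter). In the Lhx8 gate, where Dlk1 was highest, Dio3 had 0 UMIs in 141 cells and was 7.66, 9.54, 9.84 and 10.5 CPM in the other cells of libraries 1 to 4. The count of 0 allows up to 3.74 CPM, so Dio3 was at least 2.41-fold lower there (adjusted p = 0.0208 by edgeR without the filter, where 5.53% of genes passed).

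Some thyroid hormone genes were also higher in the Ppp1r1b gate. Of 9 genes tested from a list of 14, 6 rose, 3 did not pass and none fell, where 9.8% of all genes tested rose, with a median log2 fold change of 0.86 against -0.01 over all genes tested. The largest was Crym, the gene of the thyroid hormone-binding protein mu-crystallin (log2 fold change 4.50). Klf9, a transcription factor induced by the hormone, rose by 1.41 and the receptor Thrb by 1.12. The retinoid X receptor Rxrg rose by 0.86 and the receptor Thra by 0.29, the latter higher in 3 of 4 libraries.

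Cells with Dlk1 held Dio3 more often than cells without it. A Dio3 UMI was found in 42 of 618 cells with Dlk1 (6.80%) and in 19 of 1531 cells without it (1.24%); the median depths were 3810 (3809.5) and 3382 UMIs. At a fixed depth of 1000 UMIs per cell, leaving out 167 shallower cells, the share with Dio3 was 2.79%, 1.26%, 3.04% and 2.43% in Dlk1-positive cells of libraries 1 to 4. In Dlk1-negative cells it was 0.282%, 0.691%, 0.236% and 0.404%. It was higher with Dlk1 in 4 of 4 libraries, by 1.98 ± 0.991 percentage points (SD, n = 4). An exact permutation test, flipping signs over the 4 libraries, two-sided, gave p = 0.13, which is as small as this design allows. Conversely, Dlk1 was found at that depth in 50.7% ± 9.81 of Dio3-positive and 19.7% ± 3.99 of Dio3-negative cells. In 698 oligodendrocytes of that depth, which should lack both genes, Dlk1 had a UMI in 0.540% ± 0.649 of cells and Dio3 in none.

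As levels, Dio3 was 20.1, 12.7, 25.1 and 22.5 CPM in Dlk1-positive cells and 1.92, 6.31, 2.95 and 3.09 CPM in Dlk1-negative cells. The ranges did not overlap, and library 2 had the smallest difference. By edgeR, Dio3 rose by 2.55 on the log2 scale (SE 0.37, adjusted p = 6.02e-06), and of 9318 genes tested 1.97% passed. Dio3 passed the low-count filter there through the Dlk1-positive cells, where it is high, so that test is not separate support. Without the filter the log2 fold change was 2.52 (adjusted p = 4.23e-09, where 1.37% of genes passed). With the filter, Dio3 was the largest rise among genes that passed and moved the same way in 4 of 4 libraries. Split by Dio3, Dlk1 was 813, 707, 819 and 1107 CPM in Dio3-positive cells and 220, 376, 375 and 462 CPM in the others. These ranges did not overlap either, and Dlk1 rose by 1.23 (SE 0.14, adjusted p = 7.44e-15), where 2.43% of 8605 genes passed. After thinning to 1000 UMIs it was 0.89 (adjusted p = 0.0776).

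Of the 42 cells with both genes, 21 were in the Ppp1r1b gate, where both levels were higher. Inside it, the share with Dio3 at 1000 UMIs was 4.82% ± 0.731 with Dlk1 and 0.422% ± 0.367 without, higher in 4 of 4 libraries (exact permutation p = 0.13). Outside it, the share was 1.75% ± 0.956 with Dlk1 and 0.401% ± 0.191 without, higher in 3 of 4 (exact permutation p = 0.25). Outside the gate the log2 fold change of Dio3 was 1.79 (SE 0.52, adjusted p = 0.0550 by edgeR without the low-count filter), and inside it 3.07 (SE 0.68, adjusted p = 0.00552, where 0.148% of genes passed). In cells without a Crym UMI the share was 1.68% ± 0.801 with Dlk1 and 0.251% ± 0.283 without, higher in 3 of 4 (exact permutation p = 0.25).

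Cells were also grouped by their number of Dlk1 UMIs. Pooled over libraries, Dio3 was 3.23 CPM in cells without Dlk1, 13.6 with 1 Dlk1 UMI, 22.2 with 2 to 4, 27.6 with 5 to 9 and 7.94 CPM with 10 or more. As means over libraries, it was 27.8 ± 20.5 CPM with 2 to 4, 28.7 ± 12.3 with 5 to 9 and 7.43 ± 9.33 CPM with 10 or more (SD, n = 4). The last group was 69 cells with 32.7% of all Dlk1 UMIs and 4 Dio3 UMIs; its 95% Poisson interval, for counting error only, was 2.16 to 20.3 CPM. Of these 69 cells 36.2% were in the Crh gate, and 34.8% each in the Lhx8 and the Six3 gate, which held 10.6%, 6.56% and 21.0% of all GABAergic neurons. The 69 cells had a median of 6454 UMIs, against 3526 in all GABAergic neurons, and deeper cells enter a gate more easily. The part of depth in these shares was not tested. In the Lhx8 gate 77 cells had Dlk1 and none of them Dio3, which allows a share of up to 3.90% and a level of up to 6.24 CPM.

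**Figure D4:**
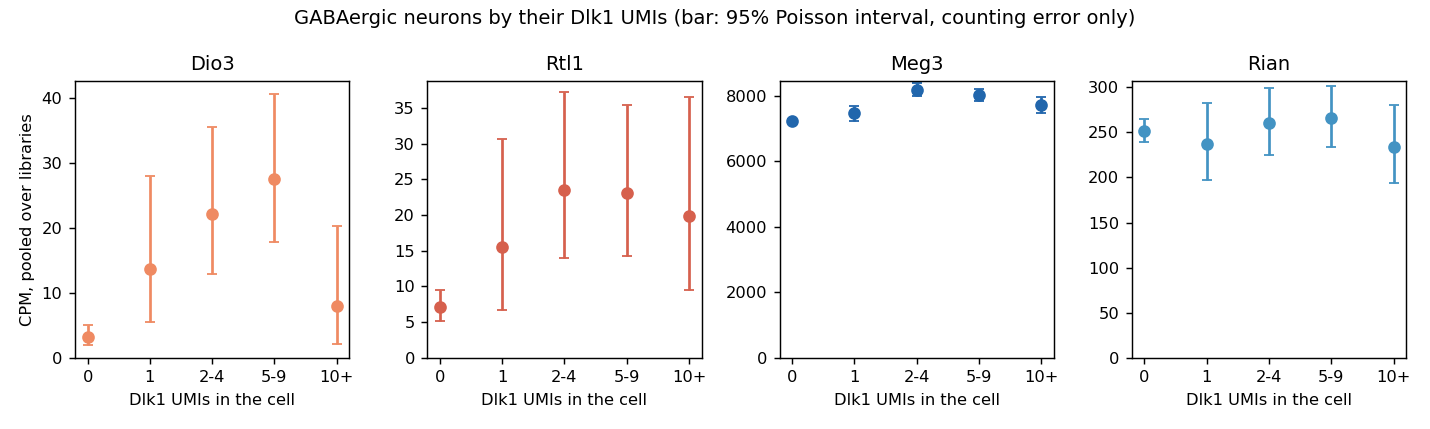
GABAergic neurons are grouped by their number of Dlk1 UMIs (x axis), and the pooled level of Dio3, Rtl1, Meg3 and Rian is plotted in CPM with its 95% Poisson interval. Dio3 is 3.23 CPM in the first group, 27.6 in the fourth and 7.94 CPM in the last, while Rian stays between 234 and 266 CPM.

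The neighbour Rtl1 went with Dlk1 too. It was 14.1, 17.4, 27.6 and 31.6 CPM in Dlk1-positive cells and 6.90, 3.94, 10.8 and 7.73 CPM in Dlk1-negative cells, with no overlap. Rtl1 rose by 1.56 on the log2 scale (SE 0.30, adjusted p = 8.02e-04 by edgeR). Rtl1 passed the low-count filter there mainly through the Dlk1-positive cells, where it is higher, so that call is not separate support. Outside the Ppp1r1b gate Rtl1 rose by 1.72 (adjusted p = 7.37e-04 by edgeR with the filter, where 1.65% of genes passed). There it was 23.3 ± 10.2 CPM with Dlk1 and 7.10 ± 2.89 CPM without. The filter acts in the same way there, so this call is not separate support either. Inside the gate Rtl1 was at 0.52 (adjusted p = 0.995 by edgeR without the low-count filter). Rtl1 was the 1 gene of 9 tested that rose among 12 genes next to or inside the domain, where 0.826% of all genes rose; none fell, and the median was 0.08 against 0.01 over all genes. The other 8 did not pass. Of 4 tested Notch pathway genes none passed (edgeR), with a median of 0.12. In neurons against non-neuronal cells, 7 of 9 tested Notch genes fell and 1, the Dlk1 relative Dlk2, rose (log2 fold change 2.44); of all genes in that fit 34.5% fell and 36.9% rose.

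Across all genes in the Dlk1 split, 77 rose and 107 fell. The 5 largest rises among those that moved the same way in all 4 libraries were Dio3, Fam101b (log2 fold change 1.64), Crym (1.59), Rtl1 and Lhx8 (1.47). The 5 largest falls were Slc17a8 (-5.61), Vip, the gene of vasoactive intestinal peptide (-3.00), A730046J19Rik (-2.96), Moxd1 (-2.42) and Npy (-2.04). All passed at an adjusted p of 8.02e-04 or lower (edgeR). Genes that are low in either group, among them Dio3 and Rtl1, can pass the low-count filter through the other group alone.

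In Dio3-positive cells the 5 largest rises were Arhgef26 (log2 fold change 2.89), Crym (2.68), Smpdl3b (2.55), Cd68 (2.47) and Glt8d2 (2.32). Each but Crym rested on 9 to 12 UMIs in those cells and was at 5.57 to 7.89 CPM, pooled, in the other GABAergic neurons. The genes other than Crym thus passed the low-count filter through the Dio3-positive cells, where they are high. Their calls are not separate support. Cd68 is a lysosomal protein best known from macrophages and microglia; its 10 UMIs are given as measured, and the part of such cells was not tested. Klf9 rose by 0.83 (adjusted p = 0.0042) and Syt4, a synaptotagmin, fell by 0.85. The 5 largest falls were genes at 0 in the 61 cells: Avp, Dlx6os1, Fam159b, Lypd6 and Lhx8. These 5 genes passed the low-count filter through the other cells, where they are high, so their calls are not separate support. A count of 0 allows 11.5 CPM over the group. Against it Dlx6os1 was at least 3.94-fold lower, Fam159b at least 3.00-fold and both Lypd6 and Lhx8 at least 2.65-fold. For Avp the limit gives 9.68-fold, but it covers counting error only. Only 7, 7, 1 and 1 GABAergic neurons of libraries 1 to 4 had at least 2 Avp UMIs. With so few such cells, a count of 0 in 61 cells cannot show a fall of Avp.

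None of the 3 noncoding RNAs of the domain passed the test in the Dlk1 or the Dio3 split. Of all genes tested 1.97% and 2.43% passed in these splits, so most genes did not pass. In simulated counts the test recovered 79.5% of 2-fold changes in the Dlk1 split and 18.5% in the Dio3 split. The Dio3 split can therefore miss changes of that size. Meg3 was 5012, 6002, 13105 and 10926 CPM in Dlk1-positive cells and 4511, 5514, 12613 and 10183 CPM in Dlk1-negative cells, higher in 4 of 4 libraries by a log2 fold change of 0.11 (SE 0.03, adjusted p = 0.0672). Rian differed by 0.02 (SE 0.08) and Mirg by -0.09 (SE 0.18), both higher in 2 of 4 libraries. In Dio3-positive cells the log2 fold change was -0.02 for Meg3 (SE 0.10), -0.02 for Rian (SE 0.20) and -0.77 for Mirg (SE 0.58, adjusted p = 0.704).

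Across the gates, Meg3 passed in 5 of 22. It was higher with Prkcd, a protein kinase C gene (0.30, adjusted p = 0.0102), and Six3 (0.17, adjusted p = 1.25e-04). It was lower with Gal, the galanin gene (-0.29, adjusted p = 0.0408), Crh (-0.14, adjusted p = 0.0389) and Calb2 (-0.11, adjusted p = 0.0467). These are differences on the log2 scale; of all genes, 7.92% passed in the Prkcd gate, 2.02% with Gal and 6.22% with Calb2. With 1 library left out Meg3 passed in 2 gates without library 1, 3 without library 2 or library 4 and 5 without library 3, and each of the 5 calls ended without at least 1 library. By DESeq2, or after thinning to 1000 UMIs, Meg3 passed in 0 gates, and without the low-count filter in 11. Rian passed in no gate (edgeR; 3 gates at an unadjusted p under 0.05; no gate by DESeq2). Without library 3 it passed in 1, Ppp1r1b, at 0.34 (adjusted p = 0.0352).

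Mirg passed in 1 gate, with a fall in the Ppp1r1b cells. It was 23.4, 5.30, 20.0 and 40.1 CPM inside and 41.2, 27.5, 79.1 and 46.9 CPM outside, lower inside in 4 of 4 libraries, though the ranges overlap. On 27 UMIs inside, Mirg was at -0.97 on the log2 scale (SE 0.29, adjusted p = 0.0133 by edgeR). The call ended without library 1 (adjusted p = 0.0514) or library 3 (0.127), with DESeq2 (0.105), with a limit of 5% mitochondrial UMIs (0.0616) and with the gate at 2 UMIs (0.189). In the same cells Meg3 differed by 0.12 (adjusted p = 0.168) and Rian by 0.27 (adjusted p = 0.0579).

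Rian and Mirg rose with the share of Meg3. GABAergic neurons of at least 1000 UMIs were split within each library into tertiles by the share of Meg3 in their UMIs, with 660 cells each in the upper and the lower group. Rian was 258, 329, 528 and 333 CPM in the upper and 157, 175, 289 and 146 CPM in the lower group of libraries 1 to 4. Mirg was 46.6, 35.2, 104 and 67.0 CPM against 28.8, 13.4, 32.6 and 26.2 CPM. Both were higher in the upper group in 4 of 4 libraries. Rian rose by 0.90 on the log2 scale (SE 0.09, adjusted p = 1.01e-11) and Mirg by 1.16 (SE 0.21, adjusted p = 6.36e-05), where 8.65% of 7956 genes passed (edgeR). Between Rian and Mirg, a Mirg UMI was found at 1000 UMIs in 4.96% ± 1.81 of cells with Rian and 3.15% ± 1.95 without, higher in 3 of 4 libraries (exact permutation p = 0.25).

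Dlk1 rose as well, by 0.39 (SE 0.08, adjusted p = 7.30e-04 by edgeR), a call that DESeq2 and thinning to 1000 UMIs did not give. It was 261, 446, 475 and 587 CPM in the upper and 191, 341, 380 and 447 CPM in the lower group. Dio3, with 23 UMIs in each group, was 9.72 ± 4.24 and 8.14 ± 2.72 CPM (SD, n = 4). Rtl1 was 3.81, 10.1, 10.7 and 15.5 CPM in the upper and 14.8, 6.72, 13.0 and 13.9 CPM in the lower group. Other long noncoding RNAs from elsewhere in the genome rose too: of 4 tested from a list of 8, 3 rose and none fell, where 4.91% of all genes rose, with a median of 0.82 against 0.00 over all genes. These were Snhg11 (1.02), Miat (0.85) and the nuclear RNA Malat1 (0.79). The upper and lower groups had median depths of 3448 (3447.5) and 3762 UMIs and mitochondrial shares of 3.69% and 3.76%. The part of the RNA's place in the nucleus in this pattern was not tested.

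**Figure D5:**
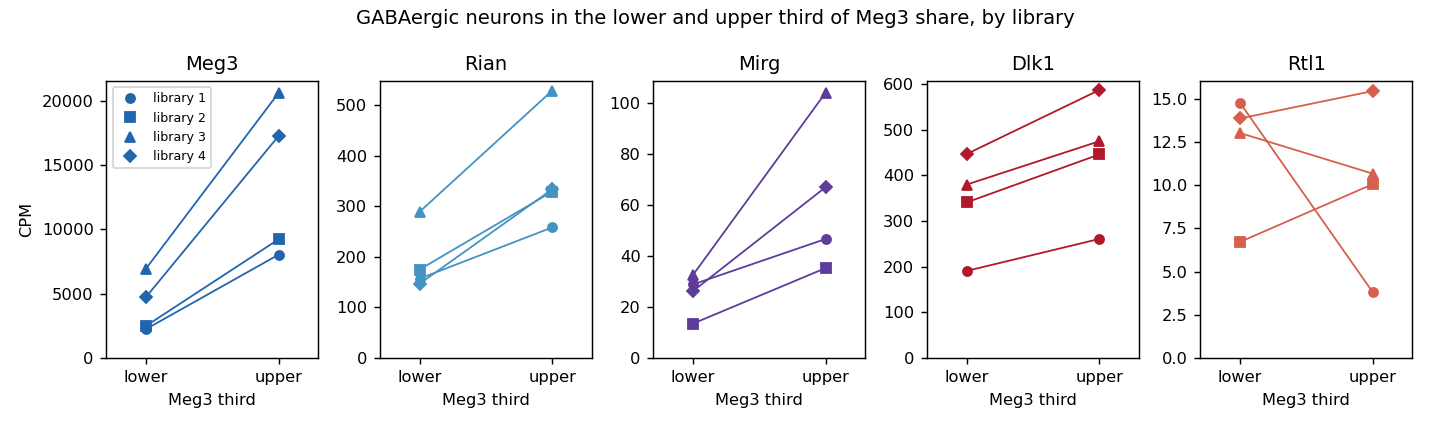
Each panel plots 1 gene in CPM in the GABAergic neurons of the lower and upper Meg3 tertile, with 1 line per library. Rian, Mirg and Dlk1 are higher in the upper tertile in all 4 libraries, and the lines of Rtl1 cross.

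Libraries themselves differed in the noncoding RNAs. Meg3 in GABAergic neurons was 4649, 5676, 12752 and 10435 CPM, 2.74-fold between the highest and lowest library, and higher in libraries 3 and 4. Mirg was 38.8, 25.3, 70.7 and 45.9 CPM and Rian 203, 240, 404 and 245 CPM. Malat1 (7844, 8819, 12360 and 13925 CPM), Snhg11 (3304, 3705, 6012 and 4965 CPM) and Miat (46.0, 49.0, 119 and 89.3 CPM) were also higher in libraries 3 and 4, while Snap25, a synaptic protein gene, varied 1.07-fold. Rian per 100 Meg3 UMIs was 4.37, 4.23, 3.17 and 2.34. With the library as a block, these differences are outside the fits above. Values pooled over libraries have no block and can hold them, such as the glial levels relative to neurons and the pooled levels by Dlk1 UMIs.

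By likeness of pattern over 11 classes and gates without shared cells, among 8023 genes, Dlk1 was closest to Tmem91 (Pearson's r 0.985 of log2(CPM + 1)), Camk2a, Micu3 and Cdkl2. Dio3 was closest to Usp9x (0.916), Ankra2, Snx19, Psmd13 and Trpc4. Meg3 was closest to Snhg11 (0.993), Chgb, Rian (0.992), Trank1 and Gap43. These are descriptions over 11 points that share 4 libraries and that separate neurons from glia. The Ppp1r1b, Lhx8, Tac2 and Slc17a8 gates are not among the points. Dio3 was at 0 in the points that are classes and in the Crh gate. In the other gates, of 20 to 68 cells, it was 4.66 to 34.8 CPM, so its ranking rests on few UMIs.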

How the data were processed

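Drop-seq libraries were made from BNST punches, per the labels' protocols. The deposited tables hold raw UMI counts per gene and barcode; the submitters' processing notes name STAR 2.4.2a, Picard 2.2.4, bcl2fastq 2.18.0.12 and the build mm10 (GRCm38). Annotation, counting strand and the barcode choice are not given in the sources used here. The genes and lists were chosen with earlier results of these data known.

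Barcodes needed at least 400 genes and at most 10% mitochondrial UMIs; Scrublet in scanpy 1.11.5 (expected rate 0.05) removed 58 of 4239 cells (1.37%). A class needed 3 of its marker genes and 2 more than any other; neurons with at least 2 UMIs of Gad1, Gad2 and Slc32a1, and more than of Slc17a6 and Slc17a7, were GABAergic. Gates needed 2 UMIs for neuropeptides and 1 otherwise, and 10 cells inside and outside in at least 3 libraries; Avp did not reach this.

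Sums of UMI counts per library and group went into the quasi-likelihood test of edgeR 4.0.16 (R 4.3.3), after filterByExpr and TMM scaling, with adjustment over all genes. Library number was the block, because the 2 sums of each library share its mice. The SE given for edgeR is the absolute log2 fold change divided by the square root of the F statistic. Tests were tried on simulated counts. The gene that split the cells was not tested. Shares at 1000 UMIs are the mean chance that a draw of 1000 UMIs from a cell includes the gene. A count of 0 is given with the limit of 3 counts; limits and intervals (95%) cover counting error only.

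Genes named are the 5 genes, members of 5 lists (flanking, thyroid hormone, Notch, neuronal, long noncoding) that passed, the 5 largest rises and falls past an adjusted p of 0.05 in all libraries for the Dlk1 and Dio3 splits, and the 5 most similar patterns; 2 genes these rules name are not reported here. Alternatives were DESeq2 1.42.0, RLE size factors, no filter, no block, thinning, other cell filters, gate settings and leaving out each library. Splitting by the Ppp1r1b gate or Crym was added after seeing the data. Positions and sequences are from GENCODE vM21 and RefSeq on GRCm38. Descriptive values were computed in Python 3.11.15 with scipy 1.17.1.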

Additional observations from a re-analysis of the deposited data

Results flagged for a closer look

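In 46 sets of 4 library values, 3 had a library far from the other 3, where chance gives 2.3. Meg3 in astrocytes was 972 CPM in library 4 and 197 to 316 CPM in the others. Library 4 also had the highest Meg3 in oligodendrocytes, 310 CPM. The difference of Dlk1 inside minus outside the Lhx8 gate, on the log2(CPM + 1) scale, was 1.71 in library 1 and 0.95 to 1.02 in the others. The difference of Dio3 between Dlk1-positive and Dlk1-negative cells, on the same scale, was 0.90 in library 2 and 2.52 to 2.85 in the others.

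The 6019 barcodes that were not kept also held UMIs of the domain. In them Dlk1 was 166 CPM, Dio3 3.53 CPM, Meg3 5193 CPM, Rian 188 CPM and Mirg 37.9 CPM, each above the limit that a count of 0 allows (1.51 CPM). These barcodes enter no comparison.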

How the results depend on the processing

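Of 552 alternatives over 39 results, 435 were the same and 102 kept the direction and lost the call. Another 15 moved a value without a call of its own, and none turned a direction. The same means an equal direction and call or, for counts of gates, transmitter differences and shares, a value near the main one. A loss of several gate calls can thus be counted as the same or as moved. Without the replicate block by library, Rian in the Meg3 tertiles was 0.92 on the log2 scale (adjusted p = 0.336) and Mirg, Dlk1, Snhg11 and Malat1 did not pass there either, Dlk1 passed in 4 gates in place of 12 and Meg3 in 0 in place of 5, and Mirg in the Ppp1r1b gate and Rtl1 and Crym in the Dlk1 split lost their calls; Dio3 in the Dlk1 split, Dlk1 in the Dio3 split and the neuron comparison kept theirs. Meg3 passed in 3 gates with RLE size factors. DESeq2 gave 7 gates for Dlk1 and thinning to 1000 UMIs 5, and with 1 library left out the number was 8 to 11. DESeq2 gave no adjusted p for Dio3 and Rtl1 in the Dlk1 split and Mirg in the tertiles. Thinning gave 0.89 for Dlk1 in the Dio3 split, and Dio3 outside the Ppp1r1b gate was 1.79. Rian passed in 0 to 1 gates with 1 library left out. The share difference for Dio3 was 5.57 percentage points without thinning and, at 1000 UMIs, 4.40 inside the Ppp1r1b gate against 1.98 over all GABAergic neurons. Dlk1 calls in the Lhx8, Ppp1r1b, Tac2 and Slc17a8 gates held in every alternative run. The causes were not tested. Limits are the count of Dio3, 73 UMIs in GABAergic neurons, and the 4 libraries, which cannot give an exact p below 0.13.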
